A study of Mus musculus with 10 samples.

Results

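The TCA cycle and fatty acid oxidation genes were examined in regulatory T cells (Treg) with a deletion of Tfam, which encodes the protein that packages mitochondrial DNA and is needed for its transcription. The members were 48 genes chosen by name, of 22553 genes in the count table: 26 for pyruvate entry, the TCA cycle and its glutamate branch, and 22 for fatty acid oxidation. All 48 were found by symbol and all 48 passed the filter on low counts.

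Poly(A) RNA had been sequenced from YFP-positive Treg, sorted and pooled from spleen and lymph node of female C57BL/6 littermates. The 3 knockout (KO) libraries came from Tfamfl/flFoxp3Yfp-Cre/+ mice and the 3 control (Ctrl) libraries from Tfamfl/+Foxp3Yfp-Cre/+ mice, with 2 to 3 mice in each pool. Cre and YFP are expressed from the Foxp3 locus in both groups, so Ctrl cells also lose 1 copy of Tfam where Cre acts. The Foxp3 gene lies on the X chromosome, so in these heterozygous females YFP marks the Treg that express the Cre allele, and the other Treg of the same mouse keep Tfam. No age is stated in the labels.

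Gene counts per library ran between 19087757 and 23794028 in KO and between 21419772 and 27490253 in Ctrl. Tfam (ENSMUSG00000003923) stood at 15.6, 14.4 and 16.5 CPM in KO, against 25.9, 30.6 and 42.4 CPM in Ctrl libraries, in the order of replicates 1 to 3, an order kept below; CPM are the usual depth-scaled counts, here with TMM factors that correct for library composition. The groups did not overlap, and Tfam was called lower (log2 fold change -1.09 ± 0.17, SE; edgeR quasi-likelihood test, adjusted p = 0.02 by Benjamini-Hochberg over 11990 tested genes); without KO replicate 1, 2 or 3 or Ctrl replicate 2 the adjusted p was 0.109, 0.0866, 0.0844 or 0.0551. Treg markers were high in every library (11 of 11 detected, Foxp3 between 783 and 873 CPM in KO and between 688 and 854 CPM in Ctrl). Of these 11, edgeR, DESeq2 and limma-voom called 0, with 1 at an unadjusted edgeR p under 0.05, against 12.6% of all tested genes. A further edgeR fit took the library number as a block, which sets same-numbered KO and Ctrl libraries against each other (below). It called 1 of the 11 lower, the checkpoint receptor gene Ctla4, where it called 4.39% of all tested genes lower. Ctla4 stood at 225, 183 and 169 CPM in KO, against 256, 223 and 192 CPM in Ctrl (edgeR with the block, adjusted p = 0.0432). DESeq2 with the block did not call it (adjusted p = 0.0901). RNA of macrophages was present too: its 15 markers summed to 625, 1486 and 552 CPM in KO and to 465, 1025 and 556 CPM in Ctrl, highest in the libraries numbered 2 of both groups. All 15 were fitted above 0 in KO (median log2 fold change 0.37). None passed in edgeR without the block (1 at an unadjusted p under 0.05) or in limma-voom, 1 was called higher by DESeq2 (Marco, adjusted p = 0.029), and 7 were called higher by edgeR with the block. Over all genes, DESeq2 called 0.549% higher and edgeR with the block 1.97% higher. The part of this RNA in the results below was not tested. For the arm medians, the member calls and some of the members, values without both libraries numbered 2 are given below. Of the lists for B cells, dendritic cells, CD8 T and NK cells, erythroid cells and platelets, and stroma, edgeR called 1 gene lower, the cytotoxic granule gene Nkg7. It stood at 8.82, 8.81 and 7.4 CPM in KO, against 11.9, 16.4 and 13.95 CPM in Ctrl (edgeR adjusted p = 0.0451). DESeq2 called it too, without the block (adjusted p = 0.0019) and with it (adjusted p = 0.00326), and limma-voom did not (adjusted p = 0.0657). Over all tested genes edgeR called 1.39% lower. Of the 4 tested CD8 T and NK markers, Nkg7 was the 1 fitted below 0. The 3 fitted above 0 were Cd8a, Cd8b1 and Eomes (log2 fold change 0.17, 0.15 and 0.31), each with overlapping groups. With the block edgeR also called the B cell gene Cd22 lower (adjusted p = 0.0274), and DESeq2 with the block did not (adjusted p = 0.171). Cd22 stood at 2.7, 2.19 and 1.73 CPM in KO, against 3.57, 4.46 and 3.91 CPM in Ctrl. Of the 6 tested B cell markers, 2 were fitted below 0 and 4 above. The 9 erythroid and platelet markers summed to 31.6, 12.9 and 41.6 CPM in KO and to 21.1, 13.1 and 38.1 CPM in Ctrl. These sums were highest in the libraries numbered 3 of both groups. The part of erythroid and platelet RNA in the results below was not tested either. In pooled RNA, fewer cells of a type and less RNA per cell cannot be told apart.

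The TCA cycle burns acetyl-CoA in the mitochondrial matrix and hands its electrons to the respiratory chain. Pyruvate dehydrogenase feeds it from glucose, glutamate enters at 2-oxoglutarate, and fatty acids are activated to acyl-CoA, carried into the matrix by carnitine and cut to acetyl-CoA by β-oxidation. The enzymes are encoded in the nucleus, whereas the respiratory chain that reoxidises their NADH and FADH2 also needs subunits encoded in mitochondrial DNA. Treg are known for relying on oxidative metabolism more than effector T cells do, and Tfam deletion is used to ask what respiration provides to them.

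Promoter windows of 3 members are shown, each from RefSeq (GRCm38.p6), 250 bases before to 50 after the annotated start, 5′ to 3′ on the gene's strand. Pdk1 and Pdk3, kinases that switch off pyruvate dehydrogenase, are shown because they had the highest and the lowest fold change of the 48 members. Hadha is shown because its window overlaps that of Hadhb: the genes of the subunits of the mitochondrial trifunctional protein lie on opposite strands and share upstream bases. In Pdk1 (chr2:71872974-71873273, plus strand, the first of 2 listed starts) and Pdk3 (chrX:93832101-93832400, minus strand) capitals mark the motifs searched for below. In Hadha (chr5:30154931-30155230, minus strand) they mark the 228 bases (chr5:30155003-30155230) that also lie in the window of Hadhb.
Pdk1: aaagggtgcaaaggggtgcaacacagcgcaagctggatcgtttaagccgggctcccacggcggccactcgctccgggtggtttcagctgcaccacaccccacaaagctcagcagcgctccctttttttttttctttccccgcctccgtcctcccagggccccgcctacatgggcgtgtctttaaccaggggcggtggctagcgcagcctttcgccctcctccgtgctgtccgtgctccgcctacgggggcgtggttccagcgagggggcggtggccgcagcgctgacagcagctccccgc
Pdk3: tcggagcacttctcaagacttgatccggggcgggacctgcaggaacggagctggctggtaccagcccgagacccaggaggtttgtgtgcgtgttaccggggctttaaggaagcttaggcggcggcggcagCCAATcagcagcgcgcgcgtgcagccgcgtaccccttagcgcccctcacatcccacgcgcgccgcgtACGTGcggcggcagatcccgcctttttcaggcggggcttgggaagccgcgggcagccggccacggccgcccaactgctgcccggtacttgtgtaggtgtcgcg
Hadha: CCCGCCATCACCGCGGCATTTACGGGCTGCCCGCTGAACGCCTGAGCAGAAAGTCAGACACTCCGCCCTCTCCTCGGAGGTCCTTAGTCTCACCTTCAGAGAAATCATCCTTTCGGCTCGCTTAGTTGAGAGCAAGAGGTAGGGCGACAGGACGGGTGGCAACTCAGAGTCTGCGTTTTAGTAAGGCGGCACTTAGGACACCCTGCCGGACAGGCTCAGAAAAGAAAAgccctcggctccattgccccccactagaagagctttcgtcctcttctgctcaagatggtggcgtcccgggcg

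Windows were found for 45 of the 48 members; Acaa2, Decr1 and Idh3a had none. The members' windows were rich in G and C, with a median of 62.0% and 20 CpG, against 52.67% and 7 CpG over 27025 genes. Of short motifs searched on both strands, CCAAT, the box bound by NF-Y, stood in 23 of 45 windows (51.1%), against 37.9% of all genes. The ETS core CCGGAAG stood in 5 (11.1%, against 9.12%) and TGCGCA, part of the NRF1 palindrome, in 7 (15.6%, against 8.06%). AAGGTCA, a nuclear receptor half-site used by ERR factors, stood in 2 (4.44%, against 4.66%). ACGTG, a form of the hypoxia response core that also lies inside the E-box CACGTG, stood in 8 (17.8%, against 19.7%). The Pdk3 window held 1 CCAAT and 1 ACGTG, and the Pdk1 window held 0 of the 5 motifs. The hypoxia response core can also read GCGTG. That form was not searched or marked, and it stands in both the Pdk1 and the Pdk3 window. The 27025 genes were not limited to tested genes or to windows as rich in G and C. The shares therefore do not set the members apart from other genes of that kind. A match describes the letters only and is not a bound site.

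The transcripts of the 48 members differed little between KO and Ctrl. By edgeR 0 of the 48 members passed an adjusted p under 0.05, where 1.49% of the tested genes did (1.39% lower and 0.1% higher in KO). DESeq2 likewise called 0 members, against 2.54% of its genes (1.99% lower and 0.549% higher), and limma-voom called 0, against 1.16% (1.13% lower and 0.025% higher). The 95% interval of the fold change lay within 1.5-fold in either direction for all 48 members, as it did for 90.0% of the 8442 tested genes in the members' range of mean CPM. The widest of these intervals was that of Etfb (-0.57 to 0.30 on the log2 scale), which had few counts. At an unadjusted p under 0.05 there were 4 of 48 members (Pdk3, Idh3a and Eci1 lower, Pdk1 higher), where the share over all tested genes was 12.6% (7.22% lower and 5.4% higher). The groups did not overlap for 7 of 48 (Pdk3, Idh3a, Eci1, Hadha and Acads lower, Pdk1 and Idh1 higher), where the share over all tested genes was 19.1% (10.4% lower and 8.63% higher).

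**Figure D1:**
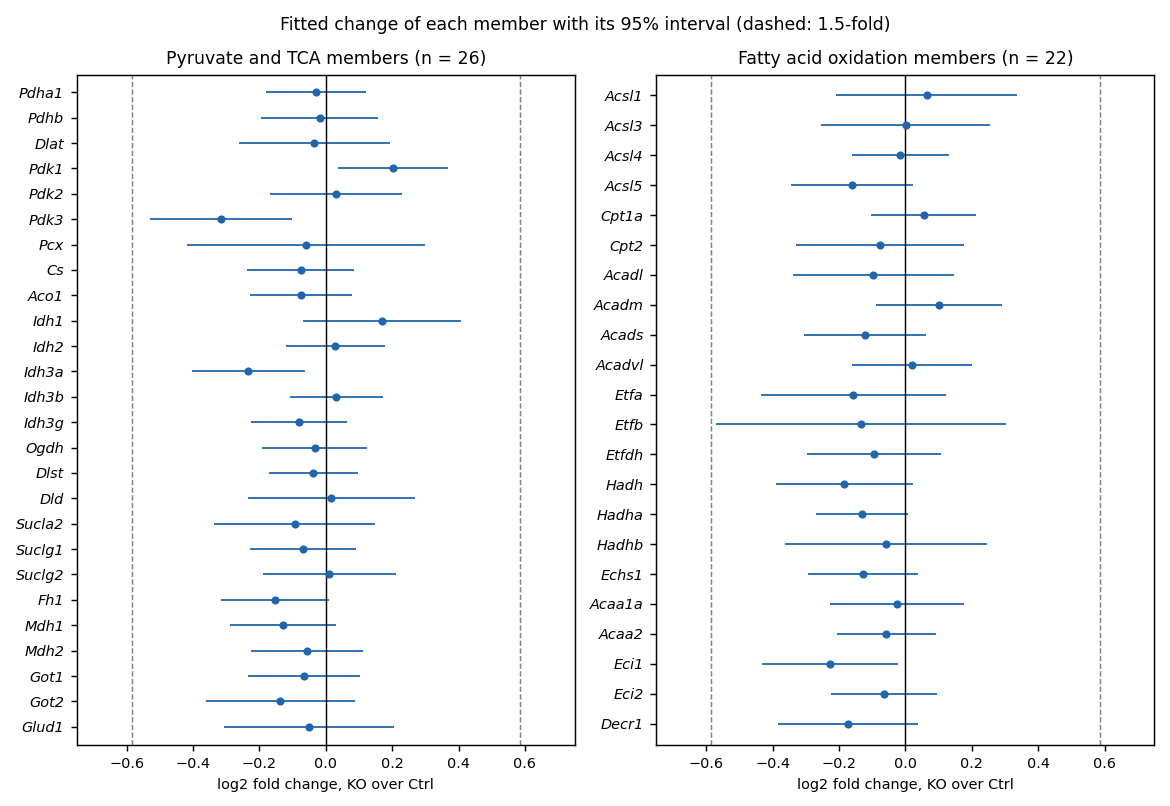
Log2 fold change of KO over Ctrl (x axis) for each of the 48 members (y axis), points with 95% intervals from the edgeR fit (3 libraries per group), and dashed lines at 1.5-fold. Every interval stays inside the dashed lines, and Pdk3 and Pdk1 lie farthest to the left and right.

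The same-numbered libraries of KO and Ctrl deviated together over all genes, so each result was also fitted with the library number as a block. In that fit 1 of the 48 members, Idh3a, was called, and lower, where the share over all tested genes was 6.36% (4.39% lower and 1.97% higher). DESeq2 with the block called 0 members, against 3.45% of its genes (2.36% lower and 1.1% higher). Idh3a encodes the catalytic subunit of the NAD-dependent isocitrate dehydrogenase, a rate-controlling step of the cycle. It (ENSMUSG00000032279) stood at 42.9, 41.05 and 46.2 CPM in KO, against 48.4, 51.1 and 53.4 CPM in Ctrl, so that every KO library lay under every Ctrl library, and averaged 43.4 ± 2.63 CPM in KO and 50.98 ± 2.48 CPM in Ctrl (SD, n = 3 each). Its log2 fold change was -0.23 ± 0.07 without the block (adjusted p = 0.242) and -0.23 with it (edgeR adjusted p = 0.0465), and DESeq2 with the block gave an adjusted p of 0.286. In edgeR without both libraries numbered 2, the log2 fold change of Idh3a was -0.19 (adjusted p = 0.711). The partner subunits did not share this pattern of separated groups. Idh3b stood at 176, 169 and 183 CPM in KO, against 168, 169.7 and 178 CPM in Ctrl, and Idh3g at 162, 169.6 and 156 CPM in KO, against 165, 179 and 172 CPM in Ctrl, both with overlapping groups and adjusted p-values of 0.871 and 0.652.

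Among the pyruvate dehydrogenase kinases, which phosphorylate and switch off the complex, 0 were called, and Pdk1 and Pdk3 were fitted in opposite directions. Pdk1 had 97.7, 99.5 and 98.9 CPM in KO, against 91.7, 78.1 and 87.5 CPM in Ctrl, higher in every KO library (log2 fold change 0.20 ± 0.07, unadjusted p = 0.0223, adjusted p = 0.294). Pdk3 had 20.2, 21.6 and 19.9 CPM in KO, against 25.1, 23.4 and 28.3 CPM in Ctrl, lower in every KO library (-0.32 ± 0.09, unadjusted p = 0.00891, adjusted p = 0.203). Pdk2, at 16.6, 17.04 and 15.3 CPM in KO, against 16.1, 15.5 and 16.3 CPM in Ctrl, overlapped between the groups (log2 fold change 0.03 ± 0.09). The 95% interval of the log2 fold change was 0.04 to 0.37 for Pdk1 (ENSMUSG00000006494) and -0.53 to -0.10 for Pdk3 (ENSMUSG00000035232). None of the kinases was called with the block either (edgeR adjusted p = 0.0772 for Pdk1 and 0.0602 for Pdk3). In edgeR without both libraries numbered 2, the log2 fold change was 0.13 for Pdk1 (adjusted p = 0.775) and -0.41 for Pdk3 (adjusted p = 0.386).

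**Figure D2:**
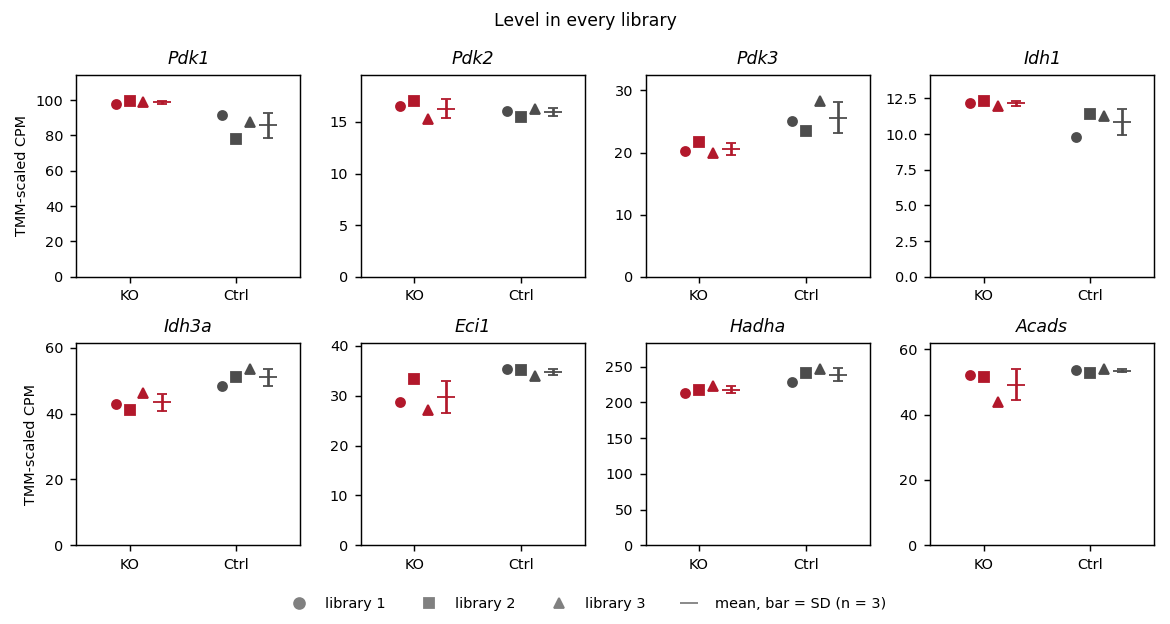
TMM-scaled CPM (y axis, from 0) in the 3 KO and 3 Ctrl libraries for Pdk2 and the 7 members whose groups did not overlap; each point is a library and bars are the mean ± SD. For Pdk1 and Idh1 the KO libraries lie above the Ctrl libraries, and for Pdk3, Idh3a, Eci1, Hadha and Acads below them, each by less than 1.5-fold in the mean.

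The 3 members of the pyruvate dehydrogenase complex itself had fold changes within 0.1 of 0 on the log2 scale. Pdha1, the E1 subunit with the sites that the kinases phosphorylate, stood at 193, 204 and 191 CPM in KO, against 189, 199.9 and 211 CPM in Ctrl. Its partner Pdhb stood at 89.00, 89.8 and 97.2 CPM in KO, against 86.9, 90.97 and 102 CPM in Ctrl. Dlat, the E2 acetyltransferase core, stood at 53.7, 52.5 and 61.4 CPM in KO, against 51.4, 56.01 and 64.2 CPM in Ctrl. Their log2 fold changes were -0.03 ± 0.07, -0.02 ± 0.08 and -0.03 ± 0.10, and the groups overlapped for all 3. Pcx, pyruvate carboxylase, which makes oxaloacetate from pyruvate, had few counts and stood at 5.53, 6.38 and 4.99 CPM in KO, against 6.42, 6.05 and 5.15 CPM in Ctrl (-0.06 ± 0.16, adjusted p = 0.914).

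In the first span of the cycle, Cs, citrate synthase, stood at 182, 195 and 184 CPM in KO, against 183, 198 and 209.7 CPM in Ctrl (log2 fold change -0.08 ± 0.07). Aco1 encodes the cytosolic aconitase that doubles as an iron sensor. It stood at 64.8, 66.5 and 61.2 CPM in KO, against 63.9, 70.2 and 68.8 CPM in Ctrl (-0.08 ± 0.07). The NADP-dependent isocitrate dehydrogenases are the cytosolic Idh1 and the mitochondrial Idh2. Idh1 stood at 12.2, 12.3 and 11.96 CPM in KO, against 9.76, 11.4 and 11.3 CPM in Ctrl, just above Ctrl in every KO library (0.17 ± 0.10, adjusted p = 0.547), and Idh2 at 52.8, 54.7 and 49.8 CPM in KO, against 50.5, 52.1 and 51.7 CPM in Ctrl (0.03 ± 0.07). All 7 genes of this span had an adjusted p of at least 0.242 in the fit without the block.

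From 2-oxoglutarate to succinate, 6 of 6 members had overlapping groups and fold changes within 0.1 of 0 on the log2 scale. Ogdh, the E1 subunit of 2-oxoglutarate dehydrogenase, stood at 298, 286 and 299 CPM in KO, against 304, 279.5 and 321 CPM in Ctrl. Dlst, its E2 subunit, stood at 103, 104 and 107 CPM in KO, against 109, 103 and 110.0 CPM in Ctrl, and Dld, the E3 subunit it shares with pyruvate dehydrogenase, at 82.3, 81.99 and 97.1 CPM in KO, against 75.8, 83.7 and 98.9 CPM in Ctrl (0.02 ± 0.11). The next enzyme, succinate-CoA ligase, pairs the common subunit Suclg1 with Sucla2 to make ATP or with Suclg2 to make GTP. Sucla2, whose product also helps maintain mitochondrial DNA, stood at 47.5, 50.6 and 56.3 CPM in KO, against 48.2, 54.01 and 62.4 CPM in Ctrl (-0.09 ± 0.11). Suclg2 stood at 23.2, 23.6 and 24.7 CPM in KO, against 21.9, 22.96 and 25.9 CPM in Ctrl (0.01 ± 0.09), and Suclg1 at 81.4, 88.3 and 88.9 CPM in KO, against 84.5, 92.1 and 94.7 CPM in Ctrl (-0.07 ± 0.07).

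The last steps were fitted slightly below 0. Fh1, fumarase, stood at 55.8, 58.7 and 54.1 CPM in KO, against 58.2, 63.5 and 65.6 CPM in Ctrl, and its log2 fold change was -0.15 ± 0.07 (unadjusted p = 0.0638, adjusted p = 0.428). The cytosolic malate dehydrogenase Mdh1 stood at 173, 179 and 171 CPM in KO, against 176, 193 and 203 CPM in Ctrl (-0.13 ± 0.07, adjusted p = 0.487), and the mitochondrial Mdh2 at 297, 314 and 266 CPM in KO, against 302, 302 and 307 CPM in Ctrl (-0.06 ± 0.07). For all 3 the groups overlapped. The malate-aspartate shuttle, which carries the electrons of cytosolic NADH into the matrix, also needs the aspartate aminotransferases. Cytosolic Got1 stood at 45.2, 44.2 and 42.9 CPM in KO, against 49.5, 45.8 and 43.2 CPM in Ctrl (-0.07 ± 0.07) and mitochondrial Got2 at 43.3, 45.3 and 48.3 CPM in KO, against 46.7, 46.2 and 57.5 CPM in Ctrl (-0.14 ± 0.10), with no member of the shuttle called. Glud1, which converts glutamate to 2-oxoglutarate, stood at 262, 259.7 and 303 CPM in KO, against 268, 253 and 333 CPM in Ctrl; the libraries numbered 3 were the highest of both groups, and the log2 fold change was -0.05 ± 0.11.

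In the fatty acid arm, 0 of 22 members were called with or without the block. The acyl-CoA synthetases activate long-chain fatty acids, Acsl5 at mitochondria and the endoplasmic reticulum and Acsl4 with a preference for arachidonate. Acsl5 stood at 133, 133 and 151 CPM in KO, against 145, 153 and 168 CPM in Ctrl, lower in KO within each same-numbered pair but with overlapping groups (-0.16 ± 0.08, adjusted p = 0.456). Acsl4 stood at 51.3, 54.3 and 55.1 CPM in KO, against 52.7, 55.7 and 54.03 CPM in Ctrl (-0.02 ± 0.06), Acsl3 at 17.02, 18.02 and 17.7 CPM in KO, against 14.9, 18.3 and 19.5 CPM in Ctrl (0.00 ± 0.11) and Acsl1 at 12.2, 12.4 and 14.5 CPM in KO, against 11.2, 12.4 and 13.7 CPM in Ctrl (0.06 ± 0.12). Thus Acsl5 had the lowest fold change of the family, and the other 3 synthetases lay within 0.1 of 0 on the log2 scale.

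Cpt1a, the outer-membrane carnitine palmitoyltransferase that limits entry of long-chain fatty acids into mitochondria, stood at 113, 128 and 114 CPM in KO, against 117, 112 and 111 CPM in Ctrl (0.06 ± 0.07, adjusted p = 0.788). Cpt2, which releases the acyl-CoA inside, stood at 18.7, 21.96 and 16.7 CPM in KO, against 19.4, 21.1 and 20.02 CPM in Ctrl (-0.08 ± 0.11). Both had overlapping groups. The acyl-CoA dehydrogenases start each turn of β-oxidation and differ in chain length. The very-long-chain enzyme Acadvl stood at 124, 135 and 148 CPM in KO, against 128, 133 and 141 CPM in Ctrl (0.02 ± 0.08), and the long-chain enzyme Acadl at 43.9, 50.98 and 52.4 CPM in KO, against 47.6, 50.01 and 59.7 CPM in Ctrl (-0.10 ± 0.11). The medium-chain enzyme Acadm stood at 43.5, 46.2 and 45.5 CPM in KO, against 38.8, 40.8 and 46.4 CPM in Ctrl (0.10 ± 0.08), the highest fold change of the arm. The short-chain enzyme Acads stood at 52.3, 51.4 and 43.8 CPM in KO, against 53.8, 52.8 and 53.8 CPM in Ctrl (-0.12 ± 0.08, adjusted p = 0.583); KO replicate 3 was low and the other KO libraries lay just under the Ctrl libraries.

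Electrons from these dehydrogenases pass through the electron transfer flavoprotein, made of Etfa and Etfb, and through Etfdh to ubiquinone. Etfa stood at 61.2, 60.1 and 71.9 CPM in KO, against 61.4, 69.6 and 84.3 CPM in Ctrl (-0.16 ± 0.12), with the libraries numbered 3 the highest of both groups. Etfb stood at 7.26, 7.99 and 4.83 CPM in KO, against 7.11, 8.14 and 6.87 CPM in Ctrl (-0.13 ± 0.19), with KO replicate 3 the lowest of the 6. Etfdh stood at 40.8, 41.6 and 43.6 CPM in KO, against 40.6, 43.96 and 50.01 CPM in Ctrl (-0.10 ± 0.09). All 3 were fitted below 0 and had adjusted p-values of at least 0.645.

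The later steps were fitted below 0 for 6 of 6 members, 0 of them called. Hadha, the α subunit of the trifunctional protein, which hydrates and dehydrogenates long-chain acyl-CoA, stood at 214, 217 and 223 CPM in KO, against 228, 242 and 246 CPM in Ctrl, lower in every KO library (-0.13 ± 0.06, unadjusted p = 0.0608, adjusted p = 0.421). Hadhb, the thiolase β subunit, whose own window shares the capitals printed above, stood at 35.8, 35.8 and 45.1 CPM in KO, against 35.5, 38.1 and 47.7 CPM in Ctrl (-0.06 ± 0.13, adjusted p = 0.896). Both were at their highest in the libraries numbered 3 of each group. The hydroxyacyl-CoA dehydrogenase Hadh stood at 51.8, 52.4 and 45.02 CPM in KO, against 51.03, 58.6 and 60.02 CPM in Ctrl (-0.18 ± 0.09), the hydratase Echs1 at 34.5, 37.00 and 33.7 CPM in KO, against 36.8, 38.6 and 39.6 CPM in Ctrl (-0.13 ± 0.07), and the mitochondrial thiolase Acaa2 stood at 76.3, 74.7 and 73.6 CPM in KO, against 73.6, 77.7 and 82.4 CPM in Ctrl (-0.06 ± 0.06). The peroxisomal thiolase Acaa1a, at 66.3, 74.8 and 63.3 CPM in KO, against 75.5, 68.3 and 64.1 CPM in Ctrl (-0.02 ± 0.09), is uncertain because it can share reads with its near-identical copy Acaa1b.

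Unsaturated fatty acids need extra enzymes to move or reduce their double bonds. Eci1, the mitochondrial enoyl-CoA isomerase, had the lowest fold change of the arm: 28.7, 33.3 and 27.1 CPM in KO, against 35.2, 35.1 and 34.01 CPM in Ctrl (-0.23 ± 0.09, unadjusted p = 0.0333, adjusted p = 0.345). Every KO library lay under every Ctrl library. Eci2 stood at 44.1, 47.03 and 46.1 CPM in KO, against 44.9, 49.3 and 49.3 CPM in Ctrl (-0.06 ± 0.07), and the dienoyl-CoA reductase Decr1 at 23.7, 24.4 and 23.8 CPM in KO, against 24.1, 29.7 and 27.4 CPM in Ctrl (-0.17 ± 0.09), both with overlapping groups.

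Set side by side, both arms leaned slightly below 0. The median log2 fold change was -0.05 over the 26 pyruvate and TCA members and -0.09 over the 22 fatty acid oxidation members, against -0.0045 over all tested genes; 19 of 26 and 17 of 22 were fitted below 0, where the share over all tested genes was 51.2%. Within same-numbered pairs 1 to 3 the median was -0.02, -0.02 and -0.10 for the pyruvate and TCA members, -0.03, -0.05 and -0.16 for the fatty acid oxidation members, and -0.0008, 0.01 and -0.03 over all tested genes. The difference between the arms was not tested. The summed CPM of the pyruvate and TCA members was 2679, 2734 and 2739 in KO, against 2699, 2741 and 2981 in Ctrl. That of the fatty acid oxidation members was 1293, 1357 and 1359 in KO, against 1342, 1408 and 1479 in Ctrl. In both sums Ctrl replicate 3 stood highest.

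The lean was smaller without that library. Ctrl replicate 3 had the highest of the 6 values for 28 of 48 members (58.3%), where its share over all tested genes was 23.4%. Without it the medians were -0.01 for the pyruvate and TCA members and -0.03 for the fatty acid oxidation members, against 0.0098 over all tested genes, and 28 rather than 36 of the 48 members were fitted below 0. Without KO replicate 1 they were -0.03 and -0.06, against 0.0092 over all tested genes. With both libraries numbered 3 left out, chosen after seeing the data, the medians were -0.02 and -0.04, against 0.0063 over all tested genes. In that fit 0 members were called, against 0.876% of the tested genes (0.867% lower and 0.00826% higher). Both libraries numbered 2 held the most macrophage RNA. Without them the medians were -0.07 and -0.11, against -0.017 over all tested genes. Again 0 members were called, against 0.446% of the tested genes, each of those lower.

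**Figure D3:**
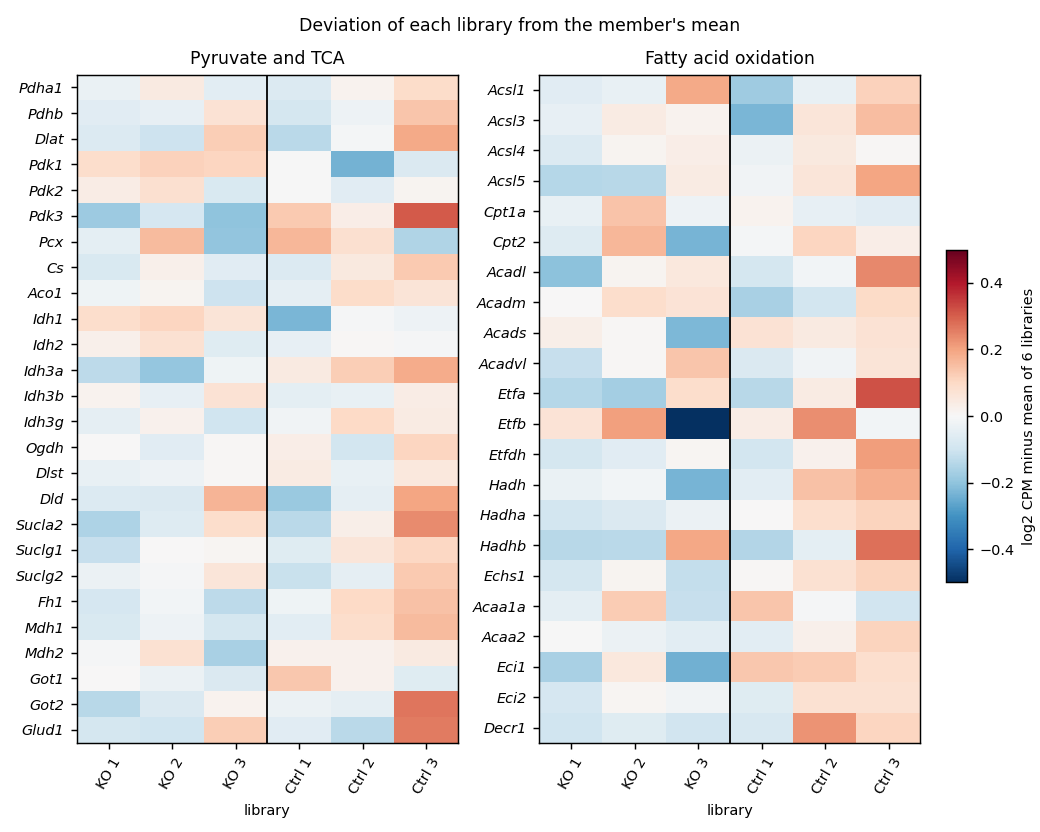
Log2 CPM of each library (columns, KO left of Ctrl) minus the member's mean over the 6 libraries (colour, from -0.5 to 0.5; Etfb in KO replicate 3 lies past the lower end), for the 48 members (rows). The column of Ctrl replicate 3 is mostly red, and that of KO replicate 1, the highest library for 0 members, is mostly blue.

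The variation of each member was split between the library number, the genotype and the rest. Of the sum of squares of a member's log2 CPM over the 6 libraries, the library number (2 degrees of freedom) held a median of 54.1%, the genotype (1 degree) 18.9% and the rest 18.1%, against 46.7%, 19.3% and 18.3% over all tested genes. The number held more than the genotype for 35 of 48 members (72.9%, against 65.9% of all tested genes). With 2 degrees of freedom against 1, the number tends to hold more even where neither has an effect. These shares therefore cannot show that the members varied more with the number than with the genotype. Hadhb, with 96.0% of its sum of squares on the number, Dld with 93.3%, Pdhb with 92.5% and Glud1 with 91.2% were at the top. For 20 of 48 members (41.7%) number 3 was the highest library in both groups, as for 21.8% of all tested genes. The genotype held the most for Idh3a (76.6%), Pdk3 (75.7%), Hadha (75.15%) and Pdk1 (68.8%), and 7.14% for Pdk2, where 74.8% was left to the rest. Those high shares restate the separated groups of these members in the same 6 libraries and add no evidence to them.

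Ratios of related genes within a library cancel its depth and ask whether the balance of isoforms differed. They are ratios of counts, not per length, so only their difference between KO and Ctrl is read, and with 3 libraries a side they were not tested. Of 13 ratios chosen with earlier results known, 6 had groups that did not overlap, where the share over all ratios of 2 tested genes in the members' range of mean CPM was 20.2%. The 6 are not independent of each other or of the results above: they share Pdk2, Acsl5 and Idh2, and 4 hold a member whose own groups did not overlap. Pdk3 over Pdk2 was 1.22, 1.27 and 1.31 in KO, against 1.56, 1.51 and 1.74 in Ctrl, a log2 difference of -0.34, the farthest from 0. Pdk1 over Pdk2 was 5.9, 5.84 and 6.48 in KO, against 5.7, 5.04 and 5.38 in Ctrl (0.18). The kinase balance was thus lower for Pdk3 and higher for Pdk1 in every KO library.

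The mitochondrial NADP enzyme stood higher relative to the catalytic subunit of the NAD enzyme, with Idh2 over Idh3a at 1.23, 1.33 and 1.08 in KO, against 1.04, 1.02 and 0.969 in Ctrl (log2 difference 0.26). Idh1 over Idh2, the cytosolic over the mitochondrial NADP enzyme, was 0.23, 0.225 and 0.24 in KO, against 0.194, 0.219 and 0.218 in Ctrl (0.14). Acsl1 over Acsl5 was 0.0918, 0.0928 and 0.0961 in KO, against 0.0774, 0.0809 and 0.0817 in Ctrl (0.23), and Acsl4 over Acsl5 was 0.386, 0.407 and 0.365 in KO, against 0.363, 0.364 and 0.321 in Ctrl (0.14). In both, the KO libraries stood higher, and Acsl3 over Acsl5 (0.17) had the same sign with overlapping groups.

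The other ratios overlapped between the groups. Cytosolic over mitochondrial enzymes gave log2 differences of -0.07 for Mdh1 over Mdh2 and 0.07 for Got1 over Got2. Sucla2 over Suclg2 differed by -0.10 and Acadl over Acadvl by -0.11. Hadha over Hadhb was 5.98, 6.06 and 4.95 in KO, against 6.42, 6.36 and 5.17 in Ctrl (-0.08), lowest in the libraries numbered 3 of both groups. Etfa over Etfb was 8.43, 7.53 and 14.9 in KO, against 8.64, 8.55 and 12.3 in Ctrl (0.02), again set apart in the libraries numbered 3.

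**Figure D4:**
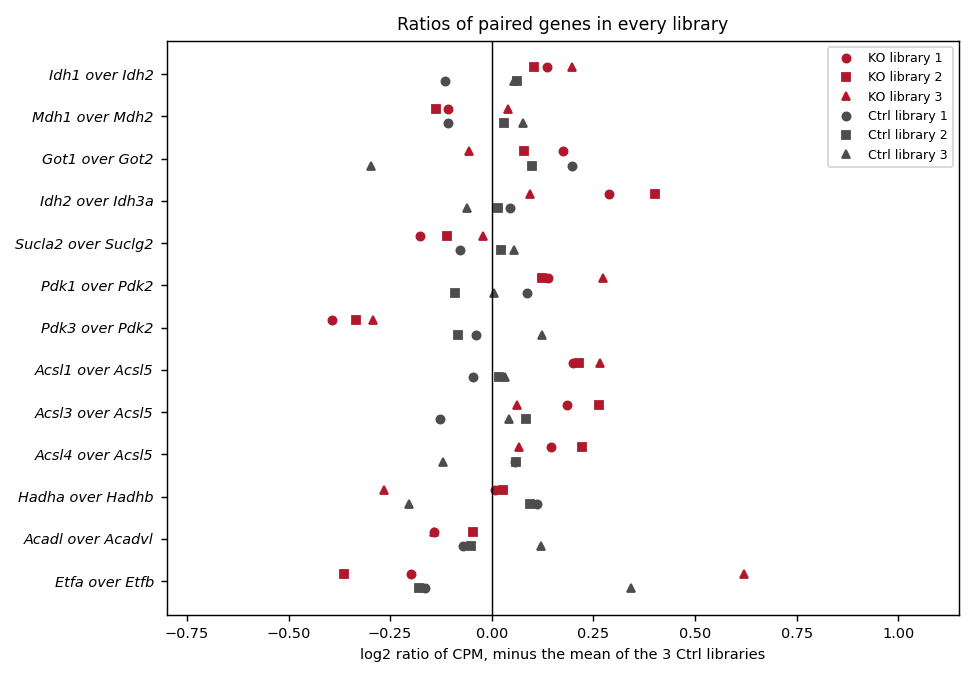
Log2 ratio of CPM of 2 genes in each library (x axis), minus the mean of the 3 Ctrl libraries, for 13 ratios (y axis); red points are KO and grey points Ctrl libraries, with the marker giving the library number. KO and Ctrl points are separate for 6 ratios, with Pdk3 over Pdk2 to the left and the other 5 to the right.

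Wider lists of the same pathways were read for comparison. Over all tested genes, 12.6% had an unadjusted edgeR p under 0.05 (7.22% lower and 5.4% higher). The shares called were 1.49% by edgeR, 2.54% by DESeq2 and 1.16% by limma-voom. With the block, edgeR called 4.39% lower and 1.97% higher. Of 22 tested genes of pyruvate entry, the TCA cycle and related complexes, 0 were called by edgeR, DESeq2 or limma-voom, with 1 at an unadjusted p under 0.05 (median log2 fold change -0.05), and the largest change above 5 mean CPM was that of Bckdhb, a subunit of the branched-chain keto acid dehydrogenase (14.2, 14.2 and 15.2 CPM in KO, against 13.8, 11.2 and 9.9 CPM in Ctrl; adjusted p = 0.364). Of 14 tested genes of glutamine and glutamate metabolism, 0 were called by these tools (median 0.03). At an unadjusted edgeR p under 0.05 there were 4, 2 lower and 2 higher in KO. Psat1, which feeds serine synthesis, stood at 38.8, 39.7 and 35.1 CPM in KO, against 40.1, 50.2 and 46.5 CPM in Ctrl (adjusted p = 0.299). With the block 1 was called lower, Aldh5a1, succinate semialdehyde dehydrogenase, at 1.52, 1.9 and 1.21 CPM in KO, against 3.11, 2.86 and 2.96 CPM in Ctrl (edgeR with the block, adjusted p = 0.022; DESeq2 with the block, 0.18).

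Of 45 tested genes of fatty acid transport and oxidation, 0 were called by the same tools (median -0.0011). At an unadjusted edgeR p under 0.05 there were 4, each higher in KO. Over all tested genes, 7.22% were lower and 5.4% higher at that threshold. Cpt1b, the muscle isoform of carnitine palmitoyltransferase, had the largest change above 5 mean CPM, at 8.06, 7.5 and 9.45 CPM in KO, against 6.57, 6.59 and 5.22 CPM in Ctrl (0.44 ± 0.15, adjusted p = 0.276). With the block 1 was called higher, Slc22a5, the carnitine importer of the cell surface, at 62.4, 54.8 and 63.8 CPM in KO, against 53.9, 41.96 and 45.6 CPM in Ctrl (edgeR with the block, adjusted p = 0.00837; DESeq2 with the block, 0.0124). Every KO library lay above every Ctrl library for both.

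Of 21 tested regulators of oxidative metabolism, edgeR and limma-voom called 0 (median 0.04). At an unadjusted edgeR p under 0.05 there were 2, 1 lower and 1 higher in KO, against 12.6% of all tested genes. DESeq2 called 1, Hif1a, where it called 2.54% of its genes. Hif1a, which drives glycolytic genes and Pdk1 in hypoxia, also had the largest change above 5 mean CPM, at 186, 169.5 and 207 CPM in KO, against 243, 230.5 and 238 CPM in Ctrl (-0.34 ± 0.08, edgeR adjusted p = 0.106). DESeq2 called it lower without the block (adjusted p = 0.0117), and both tools did with it (edgeR adjusted p = 0.00728; DESeq2 with the block, 0.00116). The coactivator Pprc1, at 143, 137 and 149.9 CPM in KO, against 128, 115 and 124 CPM in Ctrl, was called higher with the block in edgeR (adjusted p = 0.0302), where DESeq2 with the block gave 0.0519. For both genes the KO and Ctrl libraries were separate.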

How the data were processed

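The authors deposited whole-number read counts per Ensembl gene, 1 column per RNA library, made with HTSeq per the labels. Other tools in the submitters' processing notes are bedtools, SAMtools, Bowtie2, HISAT2, DESeq2 and Cufflinks, beside mm9 and mm10. What each was used for, its version, the annotation and the strand setting were not found in the labels, so reads of antisense partners may be mixed. The ATAC-seq libraries were not used here. Symbols were matched for 22522 of 22553 genes.

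The main test was run in edgeR 4.0.16 (R 4.3.3): filterByExpr (minimum count 10, minimum total 15) kept 11990 genes, TMM factors scaled the libraries, and KO was compared with Ctrl by the quasi-likelihood F test with Benjamini-Hochberg adjustment at 0.05. SE and 95% intervals came from the F statistic. DESeq2 1.42.0 and limma-voom (limma 3.58.1) were alternatives. The edgeR test was also run on simulated counts, with planted changes larger than any member's and no effect of the library number. That check does not cover changes as small as the members' or deviations shared by same-numbered libraries. A count of 3 equals between 0.109 and 0.157 CPM in the deepest and shallowest library; the members had between 92 and 9107 counts per library. Same-numbered libraries deviated together over 8596 genes (correlations 0.451, 0.518 and 0.610), a pairing read from the data, since the labels do not say what the numbers share. No pair of libraries within a group was a duplicate (chi-square per degree of freedom 8.75 to 27.4). Nothing says whether pools were prepared apart, so the spread that p-values rest on is that of the pools and can hold technical error. The floor covers counting error only.

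The members, lists and ratios were chosen with earlier results of these data known. Values per library are given for the 2 members of each role with the largest change, the 2 with the most counts and the genes in ratios; of the other lists, called genes or the largest change above a mean of 5 CPM. Aldh5a1, Slc22a5, Pprc1, Ctla4, Cd22 and Marco were named after their values were seen, for their call with the block or by DESeq2, and the members outside the rule are given for completeness. The results for 1 gene of a wider list are not reported here.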

Additional observations from a re-analysis of the deposited data

How the results depend on the processing

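The members stayed uncalled (0 lower, 0 higher) under each alternative tried but 1: with the replicate block edgeR called 1 member lower, Idh3a, and DESeq2 with the block 0. The block changed no other call among the 48 members. The count of all genes called lower, 167, was 261 with DESeq2, 526 with the replicate block, 294 with DESeq2 and the block, 54 without both libraries numbered 2, 105 without both numbered 3, and between 26 and 166 with 1 library left out. That of genes called higher, 12, was 72, 236, 137, 0 and 1 in the same settings, 3 with limma-voom, and between 0 and 10 with 1 library left out.

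Of 602 values over the 43 members chosen by the rule for named genes and 14 alternatives, 40 changed sign, each for a member that was not called; Etfb (-0.13) lay farthest from 0 of those. Without both libraries numbered 3 the log2 fold change was 0.031 for Pdha1, 0.0083 for Pdhb, 0.0016 for Ogdh, 0.015 for Mdh2, 0.0024 for Glud1, 0.0057 for Cpt2, -0.0094 for Acadvl and 0.0011 for Etfb, and without both numbered 2 it was -0.023 for Pdk2, -0.0025 for Suclg2 and -0.011 for Cpt1a. With 1 library left out the values ranged across 0 for Pdha1 (-0.054 to 0.012), Pdhb (-0.060 to 0.049), Dlat (-0.11 to 0.058), Pcx (-0.15 to 0.023), Ogdh (-0.086 to 0.013), Sucla2 (-0.17 to 0.0098), Suclg2 (-0.026 to 0.085), Mdh2 (-0.10 to 0.0061), Glud1 (-0.13 to 0.077), Acsl1 (-0.019 to 0.14), Acsl3 (-0.091 to 0.084), Acsl4 (-0.036 to 0.022), Cpt2 (-0.18 to 0.011), Acadl (-0.15 to 0.0078), Acadvl (-0.048 to 0.088), Etfb (-0.27 to 0.049) and Hadhb (-0.18 to 0.079).
The median log2 fold change stayed below 0 for both arms, between -0.054 and -0.0056 for the pyruvate and TCA members and between -0.12 and -0.033 for the fatty acid oxidation members with 1 library left out. Among the ratios, 3 changed sign with 1 library left out: Got1 over Got2 (-0.08 to 0.16), Hadha over Hadhb (-0.18 to 0.02) and Etfa over Etfb (-0.28 to 0.21). The cause of these shifts was not tested. With 3 pools a side, the members' median SE of 0.08 on the log2 scale limits what could be called.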
